A study of Arabidopsis thaliana with 8 samples.

Results

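The chloroplast genome of Arabidopsis thaliana carries genes for the photosynthetic complexes and a smaller group for making and maintaining chloroplast proteins, which is described here. A gene belongs to it if its symbol begins with rpo, rps, rpl or ycf, or is accD, clpP, matK, ccsA or cemA, and if a probe set on the array names that chloroplast gene alone. This gave 26 genes of the 69 protein-coding chloroplast genes with such a probe set, and of the 13286 genes in the whole series counted with 1 probe set each. None of the 26 had a second probe set, so no choice between probe sets was needed. They are 4 genes of the chloroplast RNA polymerase (rpoA, rpoB, rpoC1, rpoC2), 8 of the small ribosomal subunit (rps2, rps3, rps4, rps14, rps15, rps16, rps18, rps19), 7 of the large subunit (rpl14, rpl16, rpl20, rpl22, rpl32, rpl33, rpl36), 2 ycf genes (ycf3, ycf4), and 5 others (accD, ccsA, cemA, clpP, matK).

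Gene expression was measured on 8 Affymetrix ATH1 arrays, 2 for each of 4 genotypes in accession Col-0, to compare seedlings lacking jumonji proteins with WT. The groups were a JMJ24 knockout, an IBM1 knockout, a JMJ24-IBM1 double knockout and WT. Total RNA came from the aerial parts of untreated seedlings aged 12 days, grown in long days on MS medium. Jumonji proteins can take methyl groups off histones, and IBM1 protects the bodies of active genes from the histone methylation that marks silent chromatin. The alleles were not given in the labels. The probe sets of JMJ24 and IBM1 are unnamed here, so the knockouts were not checked on the arrays. The labels do not say if both arrays of a genotype stem from plants grown apart, so each p-value reflects only how far these arrays scatter, which may be technical.

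Chloroplasts make their messenger RNA with polymerases of different origin. One resembles the bacterial enzyme: its core is encoded by the rpo genes in the chloroplast, and it needs sigma factors and associated proteins encoded in the nucleus. Single-subunit polymerases resembling those of bacteriophages come wholly from the nucleus and are known to transcribe, among others, the rpoB operon. The chloroplast ribosome is likewise of the bacterial kind, and its proteins are encoded partly in the chloroplast and partly in the nucleus. Chloroplast DNA is not packed with histones.

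Values are log2 signals of each probe set as the authors deposited them. A difference of 1 is a factor of 2 in signal, and the level of one probe set says nothing about the level of another. A gene was called changed where limma gave a Benjamini-Hochberg adjusted p under 0.05 over 22746 probe sets. No member was called in any of the 6 contrasts, which were each knockout minus WT, the double knockout minus each single one, and the interaction. The share called over all probe sets was 0.00879% for the JMJ24 knockout, 0.334% for the IBM1 knockout and 0.00879% for the double knockout, each minus WT. It was 0.242% for the double minus the IBM1 knockout, 0% for the double minus the JMJ24 knockout and 0.0132% for the interaction. At an unadjusted p under 0.05 the members again gave 0 in each contrast, where over all probe sets 4.04% (JMJ24 knockout), 14.4% (IBM1 knockout) and 5.54% (double knockout), each minus WT, passed. For the double minus the IBM1 knockout 11.1% passed, for the double minus the JMJ24 knockout 3.35% and for the interaction 7.72%. The 95% interval of a member's difference between genotypes reached 0.75 either side of the estimate at the median, with a range from 0.17 for rpoB to 1.47 for rpoC2. All 26 intervals included 0 in each of the 5 pairwise contrasts, so a difference smaller than these widths could not be told from the spread between arrays. In whole aerial tissue, fewer chloroplast-rich cells and less chloroplast RNA per cell cannot be told apart.

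The 2 double knockout arrays stood apart from each other for most of these genes, and the values that moved with this are given first. Replicate 1 was the lowest of the 8 arrays for 15 of the 26 members, and replicate 2 the highest for 16. With rpoB and rps14 left out, whose signals were near background, replicate 1 was the lowest for 14. The matching share of all probe sets was not computed, so these counts are a description. The signal of the actin control probe sets at the 3' end minus that at the 5' end, a usual measure of RNA integrity, was 3.02 and 3.15 in JMJ24 knockouts, 3.90 and 3.07 in IBM1 knockouts, 4.47 and 3.42 in double knockouts, and 3.30 and 2.94 in WT. The same difference for GAPDH was 0.31 and 0.18 in JMJ24 knockouts, 0.42 and 0.28 in IBM1 knockouts, 0.94 and 0.46 in double knockouts, and 0.31 and 0.22 in WT. Double knockout replicate 1 was the highest of the 8 arrays for actin and GAPDH. The ubiquitin control went the other way between these 2 arrays, with 0.05 and 0.09 in JMJ24 knockouts, -0.26 and 0.20 in IBM1 knockouts, 0.15 and 0.35 in double knockouts, and 0.13 and -0.22 in WT. The control for 25S ribosomal RNA was lowest on that array, at 10.02, and highest on double knockout replicate 2, at 10.91. The control for 5S ribosomal RNA set the IBM1 knockout arrays apart, at 3.80 and 3.57, against 2.65 to 2.73 on the other 6, WT included. The part of RNA integrity in the results below was not tested. The labels do not state how the amplification was primed. Of 8 green-tissue markers, 2 had a named probe set, and RCA, the activase of Rubisco, stood between 12.81 and 12.95 on all arrays. LHCB4.2, a light-harvesting antenna protein, measured 12.67 and 12.59 in the IBM1 knockout and 12.79 and 12.72 in the double knockout, against 12.83 and 12.83 in WT. The IBM1 knockout difference of LHCB4.2 from WT was -0.20 (limma's adjusted p 0.173). Of 8 root markers, 2 had one. The root-hair expansin EXPA7 lay near background, between 2.21 and 2.24. PYK10, a glucosidase of roots and hypocotyls, measured 8.998 and 8.88 in JMJ24 knockouts, 9.26 and 9.63 in IBM1 knockouts, 8.65 and 9.59 in double knockouts, and 8.65 and 8.85 in WT. Like most of the 26 genes it was higher in double knockout replicate 2 than in replicate 1, and its part in their values was not tested.

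**Figure D1:**
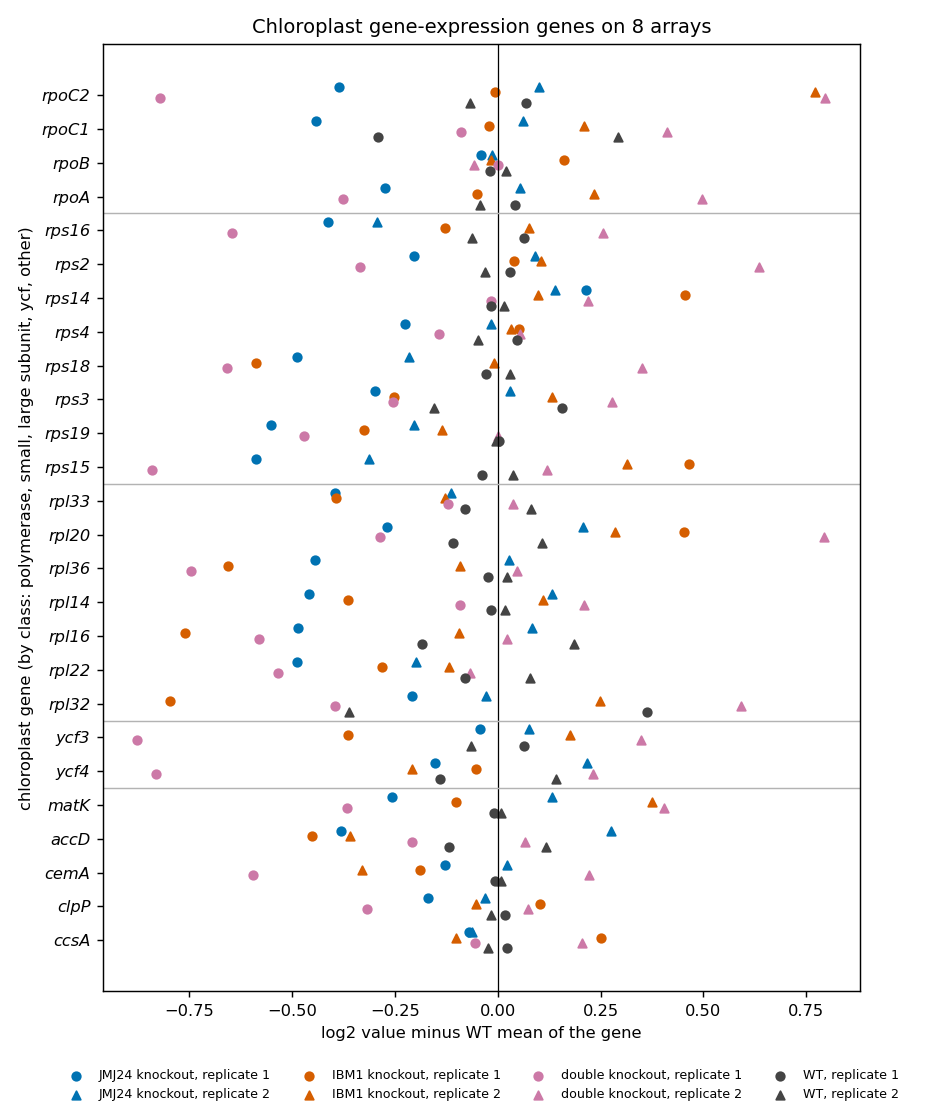
Log2 signal of each of the 26 genes on every array, shown as the value minus that gene's WT mean, with arrays running from the JMJ24 knockout through the IBM1 and double knockouts to WT and genes grouped by role. Double knockout replicate 2 is above the WT mean for 24 of 26 genes and double knockout replicate 1 below it for 25.

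Of the 4 polymerase genes none passed the test in any knockout, and in each the arrays of knockouts and WT overlapped. The gene of the alpha subunit, rpoA, measured 10.90 and 11.23 in JMJ24 knockouts, 11.12 and 11.41 in IBM1 knockouts, 10.80 and 11.67 in double knockouts, and 11.21 and 11.13 in WT. Every knockout had 1 array below and 1 array above both WT arrays. The gene of the beta' subunit, rpoC1, measured 7.28 and 7.78 in JMJ24 knockouts, 7.70 and 7.93 in IBM1 knockouts, 7.63 and 8.13 in double knockouts, and 7.43 and 8.01 in WT. Its WT arrays were 0.58 apart, so no genotype lay outside their range on both arrays. The gene of the beta'' subunit, rpoC2, measured 6.03 and 6.51 in JMJ24 knockouts, 6.41 and 7.18 in IBM1 knockouts, 5.59 and 7.21 in double knockouts, and 6.48 and 6.34 in WT. The gap of 1.62 between its double knockout arrays was the largest replicate gap of any member. The beta subunit gene rpoB measured 2.57 and 2.60 in JMJ24 knockouts, 2.78 and 2.60 in IBM1 knockouts, 2.62 and 2.56 in double knockouts, and 2.60 and 2.64 in WT. The lower quartile over all probe sets was 2.49 to 2.53 depending on the array, so rpoB gave little signal above background.

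In the JMJ24 knockout the 4 polymerase genes had lower means than in WT, by 0.03 (rpoB) to 0.19 (rpoC1) on the log2 scale. In the IBM1 knockout all 4 means were higher, by 0.07 (rpoB), 0.09 (rpoA), 0.09 (rpoC1) and 0.38 (rpoC2). In the double knockout the differences from WT were 0.16 for rpoC1, 0.06 for rpoA, -0.01 for rpoC2 and -0.03 for rpoB. The arrays of every knockout overlapped those of WT in all 12 of these comparisons, which share the WT arrays. Overlap was the usual outcome over all probe sets. Both arrays lay above WT for 12.4% (JMJ24 knockout), 19.2% (IBM1 knockout) and 13.1% (double knockout) of them. They lay below for 12%, 18.7% and 11.5% in the same order. The IBM1 knockout difference of rpoC2, the largest, had a 95% interval from -1.09 to 1.85 and an adjusted p of 0.980 in limma. It rested on IBM1 knockout replicate 2 and was -0.0064 without that array.

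The 8 small-subunit genes varied by 0.28 (rps4) to 1.304 (rps15) between their lowest and highest arrays. The gene with the widest range, rps15, encodes a protein that tobacco chloroplasts can do without. It measured 5.40 and 5.68 in JMJ24 knockouts, 6.45 and 6.30 in IBM1 knockouts, 5.15 and 6.11 in double knockouts, and 5.95 and 6.03 in WT. The JMJ24 knockout arrays lay below both WT arrays and the IBM1 knockout arrays above them, while the double knockout arrays lay on both sides. The differences from WT were -0.45 (95% interval -1.25 to 0.35) in JMJ24 knockouts, 0.39 (-0.41 to 1.19) in IBM1 knockouts and -0.36 (-1.16 to 0.44) in double knockouts. Limma's adjusted p was 1 for the JMJ24 knockout, 0.727 for the IBM1 knockout and 1 for the double knockout. The double minus IBM1 knockout difference, -0.75 (-1.55 to 0.05, adjusted p 0.485), was the largest of any member in any pairwise contrast.

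The other small-subunit genes varied less. For rps19, whose protein sits in the head of the subunit in Escherichia coli, the arrays gave 10.86 and 11.21 in JMJ24 knockouts, 11.09 and 11.28 in IBM1 knockouts, 10.94 and 11.42 in double knockouts, and 11.42 and 11.41 in WT. Both single knockouts thus lay below WT without overlap, with differences of -0.38 (JMJ24 knockout, limma's adjusted p 1) and -0.23 (IBM1 knockout, adjusted p 0.742). The 2 comparisons share the WT arrays. For rps18 the arrays gave 7.97 and 8.25 in JMJ24 knockouts, 7.88 and 8.45 in IBM1 knockouts, 7.80 and 8.81 in double knockouts, and 8.43 and 8.49 in WT. For rps16 they gave 5.02 and 5.14 in JMJ24 knockouts, 5.31 and 5.51 in IBM1 knockouts, 4.79 and 5.69 in double knockouts, and 5.50 and 5.37 in WT. Both were below WT on both arrays of the JMJ24 knockout, by 0.35 in each case on the means. The signal of rps14, 2.78 to 3.25 over the 8 arrays, was near background, with 3.01 and 2.93 in JMJ24 knockouts, 3.25 and 2.89 in IBM1 knockouts, 2.78 and 3.01 in double knockouts, and 2.78 and 2.81 in WT. Its difference of 0.18 was the largest positive one in the JMJ24 knockout, and its 0.28 in IBM1 knockouts had the lowest adjusted p of any member against WT, 0.487 in limma.

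For rps4, whose protein is among the first to bind the small-subunit RNA in Escherichia coli, all 8 arrays lay between 11.28 and 11.56. The gene rps2 measured 7.57 and 7.86 in JMJ24 knockouts, 7.81 and 7.87 in IBM1 knockouts, 7.43 and 8.41 in double knockouts, and 7.80 and 7.74 in WT. The IBM1 knockout stood above WT without overlap, by 0.07 on the means. The gene rps3 measured 10.97 and 11.30 in JMJ24 knockouts, 11.02 and 11.40 in IBM1 knockouts, 11.02 and 11.55 in double knockouts, and 11.43 and 11.12 in WT. Its 2 WT arrays were 0.31 apart, and all groups overlapped.

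The 7 large-subunit genes had lower means than WT in the JMJ24 knockout in 7 of 7 cases, in the IBM1 knockout in 6 of 7, and in the double knockout in 4 of 7. Over all probe sets 46.3%, 57.6% and 44.5% were below 0 in the same order. Array by array, the median of the 7 genes relative to their WT means was -0.44 and 0.03 in JMJ24 knockouts. It was -0.39 and -0.09 in IBM1 knockouts, and -0.39 and 0.05 in double knockouts. The lower means thus came largely from replicate 1 of each knockout. For rpl22 the arrays gave 10.75 and 11.04 in JMJ24 knockouts, 10.96 and 11.12 in IBM1 knockouts, 10.71 and 11.17 in double knockouts, and 11.16 and 11.32 in WT. Of the 3 knockouts only the double one overlapped WT. For rpl33, needed by tobacco mainly in the cold, they gave 8.72 and 9.001 in JMJ24 knockouts, 8.72 and 8.99 in IBM1 knockouts, 8.99 and 9.15 in double knockouts, and 9.03 and 9.19 in WT. Both single knockouts lay below WT here too, with differences of -0.25 in JMJ24 knockouts (limma's adjusted p 1) and -0.26 in IBM1 knockouts (adjusted p 0.541). The interaction of rpl33, 0.47 (95% interval -0.04 to 0.98, adjusted p 0.688), had the lowest p of any member for that contrast.

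The largest negative difference in the IBM1 knockout was that of rpl16, which measured 10.23 and 10.80 in JMJ24 knockouts, 9.96 and 10.62 in IBM1 knockouts, 10.14 and 10.74 in double knockouts, and 10.53 and 10.90 in WT. Its difference was -0.43 (-1.32 to 0.46, adjusted p 0.732), with overlap. For rpl36 the arrays gave 10.05 and 10.53 in JMJ24 knockouts, 9.84 and 10.41 in IBM1 knockouts, 9.75 and 10.54 in double knockouts, and 10.47 and 10.52 in WT. The IBM1 knockout lay below WT on both arrays (-0.37, adjusted p 0.775). The gene rpl14 measured 9.91 and 10.50 in JMJ24 knockouts, 10.005 and 10.48 in IBM1 knockouts, 10.28 and 10.58 in double knockouts, and 10.35 and 10.39 in WT, with overlap throughout.

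Against this direction, rpl20 measured 5.52 and 6.001 in JMJ24 knockouts, 6.25 and 6.08 in IBM1 knockouts, 5.51 and 6.59 in double knockouts, and 5.69 and 5.90 in WT. The IBM1 knockout was above WT without overlap, by 0.37 (-0.59 to 1.33, adjusted p 0.833). For rpl32 the arrays gave 10.05 and 10.23 in JMJ24 knockouts, 9.46 and 10.51 in IBM1 knockouts, 9.87 and 10.85 in double knockouts, and 10.62 and 9.90 in WT. The 2 WT arrays of rpl32 were 0.72 apart, the largest WT gap of any member, and no group stood outside another.

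The ycf genes encode factors that help assemble photosystem I. For ycf3 the arrays gave 8.69 and 8.81 in JMJ24 knockouts, 8.37 and 8.91 in IBM1 knockouts, 7.86 and 9.08 in double knockouts, and 8.80 and 8.67 in WT. For ycf4 they gave 5.57 and 5.94 in JMJ24 knockouts, 5.67 and 5.51 in IBM1 knockouts, 4.89 and 5.95 in double knockouts, and 5.58 and 5.86 in WT. In both genes the double knockout held the lowest and the highest of the 8 arrays. They also had the largest negative differences of the double minus the JMJ24 knockout, -0.33 for ycf4 and -0.28 for ycf3 (limma's adjusted p 1 each).

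Of the 5 other genes, accD encodes the chloroplast's own subunit of acetyl-CoA carboxylase, which starts fatty acid synthesis. It measured 7.21 and 7.87 in JMJ24 knockouts, 7.14 and 7.23 in IBM1 knockouts, 7.38 and 7.66 in double knockouts, and 7.47 and 7.71 in WT. The IBM1 knockout was below WT on both arrays (-0.40, 95% interval -1.003 to 0.19, adjusted p 0.573). It was also below the double knockout on both arrays, the double minus IBM1 difference being 0.33 (adjusted p 0.747). The envelope protein gene cemA measured 8.74 and 8.89 in JMJ24 knockouts, 8.68 and 8.54 in IBM1 knockouts, 8.27 and 9.09 in double knockouts, and 8.86 and 8.88 in WT. There too the IBM1 knockout lay below WT (-0.26, adjusted p 0.829).

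The gene of the proteolytic Clp subunit, clpP, measured 10.37 and 10.51 in JMJ24 knockouts, 10.64 and 10.49 in IBM1 knockouts, 10.22 and 10.61 in double knockouts, and 10.56 and 10.52 in WT. For ccsA, which acts in attaching heme to c-type cytochromes, the arrays gave 9.98 and 9.99 in JMJ24 knockouts, 10.30 and 9.95 in IBM1 knockouts, 9.99 and 10.25 in double knockouts, and 10.07 and 10.03 in WT. Both genes lay below WT on both JMJ24 knockout arrays, by 0.10 for clpP and 0.07 for ccsA on the means. The intron maturase gene matK measured 9.64 and 10.03 in JMJ24 knockouts, 9.80 and 10.27 in IBM1 knockouts, 9.53 and 10.30 in double knockouts, and 9.89 and 9.91 in WT. All of its groups overlapped.

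Over the 26 genes, the JMJ24 knockout minus WT difference had a median of -0.12 and was below 0 for 23, where over all probe sets the median was 0.00 and 46.3% were below 0. Both JMJ24 knockout arrays lay below both WT arrays for 8 members (rps15, rps16, rps18, rps19, rpl22, rpl33, clpP and ccsA), or 30.8%, against 12% of all probe sets and 16.7% of those with a group mean of at least 5. They lay above for 1, rps14, against 12.4% of all probe sets and 16.1% of the brighter ones. This low side rested on JMJ24 knockout replicate 1: without that array the median was 0.03 and 15 of 26 were above 0, and without replicate 2 it was -0.29. The largest negative differences were those of rps15 (-0.45) and rps19 (-0.38), and the only positive ones besides rps14 (0.18) were 0.03 for ycf4 and 0.02 for ycf3. All 26 had an adjusted p of 1 in limma.

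In the IBM1 knockout the members' median difference from WT was -0.04, with 12 above 0 and 14 below, against a median of -0.01 and 57.6% below 0 over all probe sets. The members' median was 0.05 without IBM1 knockout replicate 1, -0.12 without replicate 2 and 0.04 without WT replicate 1. Both arrays lay above WT for 4 members (rps2, rps14, rps15, rpl20), or 15.4%, against 19.2% of all probe sets and 27.1% of those with a group mean of at least 5. They lay below for 6 (rps19, rpl22, rpl33, rpl36, accD, cemA), or 23.1%, against 18.7% of all probe sets and 32.7% of the brighter ones. The share above lay under both backgrounds and the share below lay between them. The largest positive differences were those of rps15 (0.39) and rpoC2 (0.38), and the largest negative ones those of rpl16 (-0.43) and accD (-0.40).

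In the double knockout the median difference from WT was also -0.04, with 10 above 0 and 16 below, where 44.5% of all probe sets were below 0. No member had both arrays on one side of WT, where 13.1% of all probe sets lay above and 11.5% below. Among probe sets with a group mean of at least 5 these shares were 15.2% and 18.6%. The largest differences were -0.36 for rps15, -0.35 for rpl36, 0.25 for rpl20 and 0.16 for rpoC1, with an adjusted p of 1 for all 4. With replicate 2 as the only double knockout array, 24 of 26 members were above WT, with a median of 0.22. With replicate 1 alone, 25 of 26 were below, with a median of -0.37.

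The double minus the IBM1 knockout had a median of -0.02, with 15 members below 0, against 40.3% of all probe sets. The median was 0.34 (3 below) without double knockout replicate 1 and -0.33 (23 below) without its replicate 2; without IBM1 knockout replicate 2 it was 0.10 (11 below), and without its replicate 1 -0.10 (20 below). Both double knockout arrays lay above for accD and rpl33 (7.69%, against 16.2% of all probe sets) and below for rps15 (3.85%, against 14.8%). Among probe sets with a group mean of at least 5, 24.5% lay above and 23.2% below. Its largest negative differences were those of rps15 (-0.75) and rpoC2 (-0.40, limma's adjusted p 0.990), and its largest positive ones those of rpl32 (0.37, adjusted p 0.967) and accD (0.33). The double minus the JMJ24 knockout had a median of 0.11, with 8 members below 0, against 49% of all probe sets. This median was 0.35 (1 below) without double knockout replicate 1, -0.26 (21 below) without its replicate 2 and -0.03 (17 below) without JMJ24 knockout replicate 1. There rpoC1 (0.35) and rpl20 (0.28) were highest, both with an adjusted p of 1. Only ccsA stood outside, above on both arrays (3.85%, against 10.7% of all probe sets), and none lay below, against 9.71%. The brighter probe sets gave 11.1% above and 15.7% below. The interaction had a median of 0.13 and was below 0 for 9 members, against 45.9% of all probe sets. Without double knockout replicate 2 it was below 0 for 19 (median -0.11), without its replicate 1 for 2 (median 0.50), and without JMJ24 knockout replicate 1 for 13. Single values ran from -0.35 for rps14 (adjusted p 0.823) and -0.30 for rps15 (adjusted p 1) to 0.49 for rpl32 (adjusted p 1) and 0.50 for rps18 (adjusted p 0.990).

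**Figure D2:**
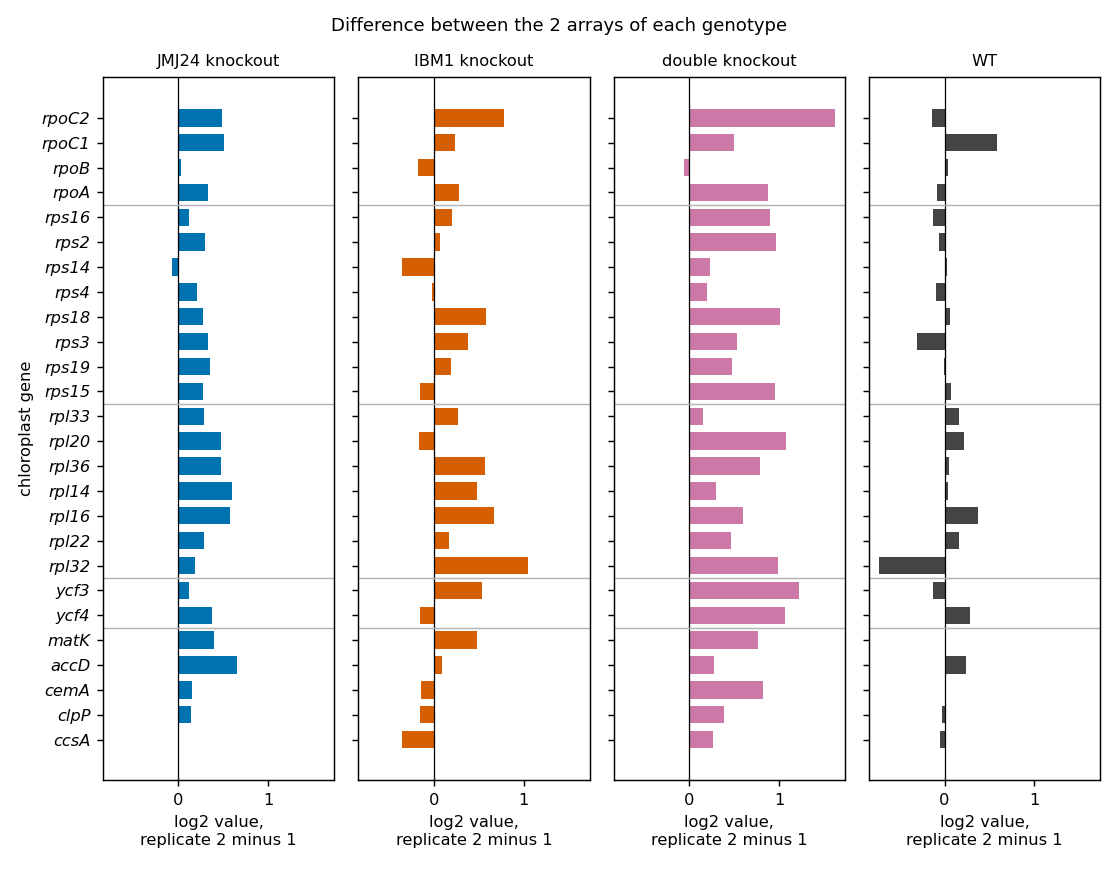
Log2 value of replicate 2 minus replicate 1 for each of the 26 genes, in 1 panel per genotype (JMJ24, IBM1 and double knockout, then WT), as bars from 0. Replicate 2 is higher for 25 of 26 genes in both the JMJ24 and the double knockout, where rpoC2 reaches 1.62, and for 15 of 26 in WT.

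In each of the 3 knockouts the 2 arrays differed in the same direction for most members. In the JMJ24 knockout replicate 2 exceeded replicate 1 for 25 of 26 members, with a median gap of 0.29 on the log2 scale. In the IBM1 knockout it did so for 17, with a median gap of 0.20. In the double knockout it did so for 25, with a median gap of 0.69, and in WT for 15, with a median gap of 0.02. Over all probe sets the share with replicate 2 higher was 65.4% in JMJ24 knockouts, 59.3% in IBM1 knockouts, 34.3% in double knockouts and 37.2% in WT. Among probe sets with a group mean of at least 5 the shares were 50.8%, 44.0%, 51.2% and 55.5% in the same order of genotypes. Among the double knockout gaps only rpoB ran the other way, by 0.06. In the 43 chloroplast photosynthesis genes replicate 2 was higher for 40 of 43 in JMJ24 knockouts, 32 in IBM1 knockouts, 38 in double knockouts and 17 in WT. Their median gap in the double knockout was 0.47. Members and photosynthesis genes thus had the same prevailing direction in the 3 knockouts. In WT the photosynthesis median gap was -0.08. The members showed no clear direction there, their share of 57.7% being near the 55.5% of the brighter probe sets. Between the double knockout arrays the actin and GAPDH measures given above were lower on replicate 2, and the ubiquitin measure and the 25S control were higher there. Their part was not tested.

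**Figure D3:**
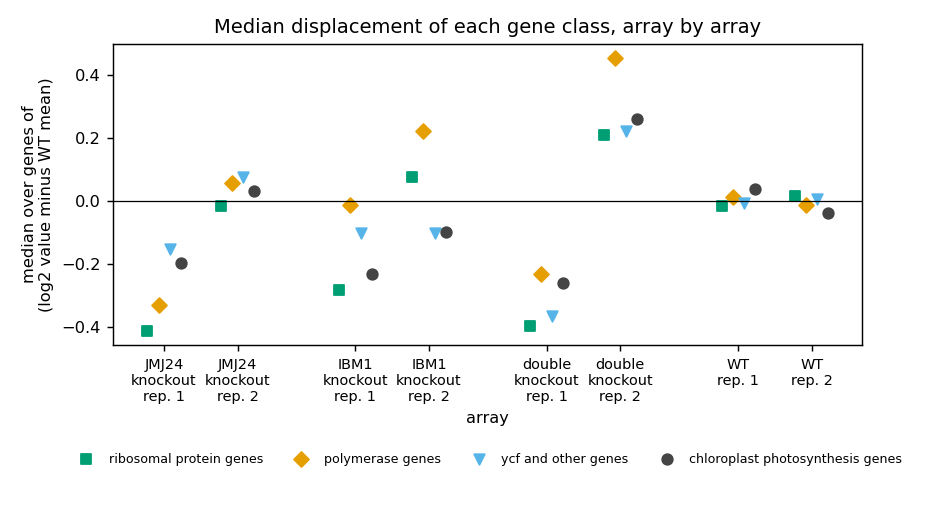
Median over each gene class of the log2 value minus the gene's WT mean, for the 8 arrays from the JMJ24 knockout on the left to WT on the right. The polymerase median lies above the ribosomal median on all 6 knockout arrays, which share the same WT mean, and double knockout replicate 1 and replicate 2 lie on opposite sides of 0 for all 4 classes.

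Since a shift of equal size in all chloroplast genes of an array cancels in a difference between classes, the 15 ribosomal genes were set against the 4 polymerase genes array by array. The replicate gaps were not of equal size, running in the double knockout from -0.06 for rpoB to 1.62 for rpoC2. An array shift therefore need not cancel fully. Each gene's WT mean was first subtracted, and the median of the polymerase genes was taken from that of the ribosomal genes. The result was -0.08 and -0.07 in JMJ24 knockouts, -0.27 and -0.15 in IBM1 knockouts, -0.16 and -0.25 in double knockouts, and -0.03 and 0.03 in WT. The 2 WT values mirror each other by construction. All knockout values are taken from the mean of these same 2 arrays and share its error, so their common sign does not count as agreement among separate measurements. The SD between replicate arrays, pooled over genotypes, was 0.0556. This is a description of 19 genes chosen with results known, and no test was made of it.

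Computed from the genotype differences, the ribosomal median minus the polymerase median was -0.07 for the JMJ24 knockout, -0.22 for the IBM1 knockout and -0.07 for the double knockout, each against WT. In the IBM1 knockout it combined a ribosomal median of -0.13 (10 of 15 genes below 0) with a polymerase median of 0.09 (4 of 4 above 0). Each median turned with 1 array: the ribosomal median was 0.08 without IBM1 knockout replicate 1, and the polymerase median -0.01 without replicate 2. Their difference was between -0.06, without WT replicate 1, and -0.32, without WT replicate 2, over the arrays left out in turn. In the JMJ24 knockout the ribosomal median was -0.20 and the polymerase median -0.13. Without JMJ24 knockout replicate 1 they were -0.02 and 0.06. In the double knockout they were -0.05 and 0.02, and became 0.21 and 0.45 without its replicate 1 and -0.39 and -0.23 without its replicate 2. With rpoB at background, the polymerase side rested in effect on 3 genes. Without rpoB, an alternative chosen after seeing the data, the difference was -0.06 in JMJ24 knockouts, -0.22 in IBM1 knockouts and -0.11 in double knockouts.

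**Figure D4:**
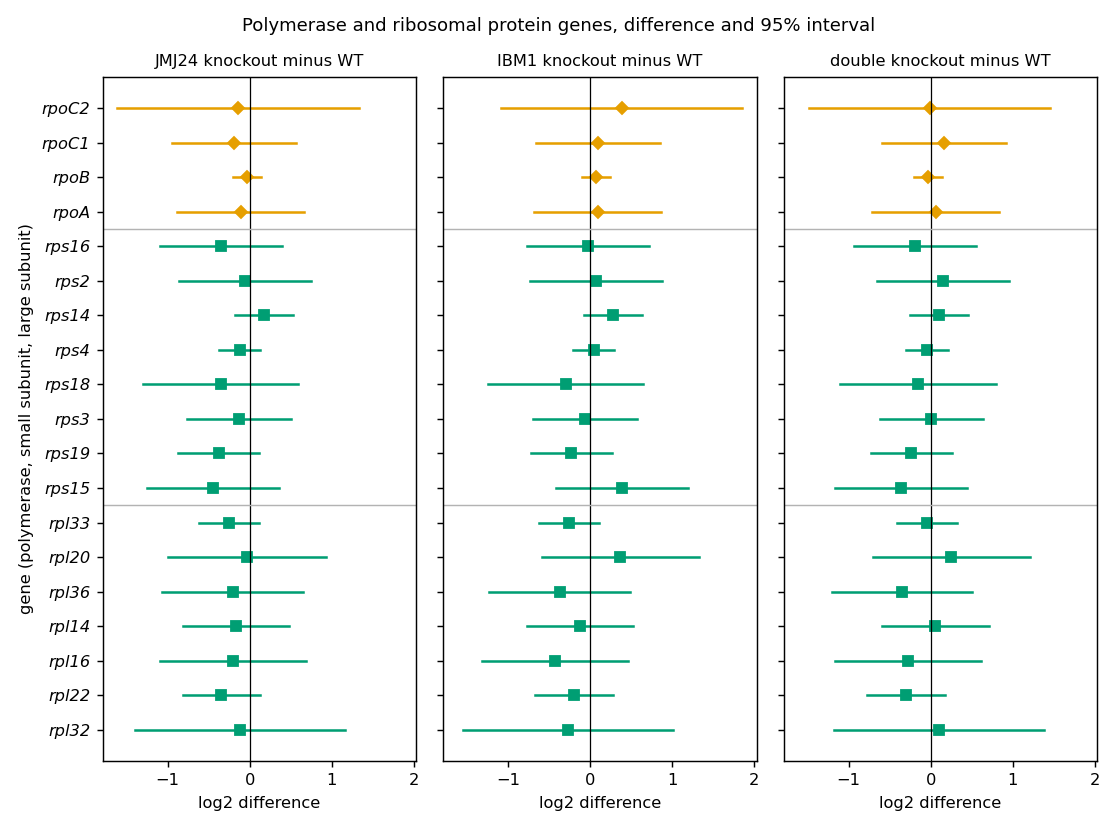
Log2 difference from WT, with its 95% interval, of the 4 polymerase genes (diamonds) and the 15 ribosomal protein genes (squares) in the JMJ24, IBM1 and double knockouts. Every interval includes 0, and rpoC2 has the widest, reaching 1.47 either side.

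Among the ribosomal genes in the IBM1 knockout, those of the large subunit had a median of -0.26 against WT and those of the small subunit of 0.01. Neighbouring genes can also be compared across subunits. In the gene order of assembly TAIR10.1, rps19, rpl22, rps3, rpl16, rpl14 and rpl36 lie in this order, with a few genes outside the 26 among them, in a cluster that ends with rpoA. These 6, picked out with their values known, were below WT in 6 of 6 cases in the IBM1 knockout, with a median of -0.22, where rpoA itself was 0.09 above. The other 9 ribosomal genes had a median of 0.04. Without IBM1 knockout replicate 1 the median of the 6 was -0.09, with 4 of 6 below. In the JMJ24 knockout the 6 genes had a median of -0.20 and the other 9 of -0.12, and in the double knockout the 6 had -0.26 and the other 9 -0.04. The median of the 6 was 0.03 without JMJ24 knockout replicate 1, and likewise 0.03 for the double knockout without its replicate 1. The other 9 had -0.03 and 0.26 without the same arrays. No test of these differences between groups of genes was made.

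The 43 photosynthesis genes of the chloroplast, encoding photosystem, cytochrome b6f, ATP synthase and NDH subunits among others, were likewise without a call. Their median differences from WT were -0.06 in JMJ24 knockouts, -0.14 in IBM1 knockouts and -0.02 in double knockouts. In the IBM1 knockout 34 of 43 were below 0, and 17 (39.5%) lay below WT on both arrays, where the 26 members had 14 below 0 and 6 (23.1%) without overlap. Over all probe sets 57.6% were below 0 and 18.7% lay below WT on both arrays, or 32.7% of those with a group mean of at least 5. Without IBM1 knockout replicate 1, 26 of the 43 photosynthesis genes and 12 of the 26 members were below 0. Without its replicate 2 these counts were 36 and 18, and without WT replicate 1 they were 27 and 12. The photosynthesis genes with the lowest p were psbE and psbF, the subunits of cytochrome b559. In the IBM1 knockout psbE measured 9.36 and 8.97, against 9.77 and 9.69 in WT, a difference of -0.56 (limma's adjusted p 0.142). There psbF measured 10.49 and 10.37, against 11.05 and 10.95 in WT, a difference of -0.56 (adjusted p 0.155). The double knockout measured 9.47 and 9.49 for psbE and 10.64 and 11.01 for psbF.

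Few of the nuclear genes whose products work with these proteins had a named probe set. Of 32 nuclear genes for chloroplast ribosomal proteins 9 were measured, and none was called. Their median difference from WT was -0.08 in JMJ24 knockouts, -0.23 in IBM1 knockouts and -0.29 in double knockouts. The lowest adjusted p was that of PRPL19A, which measured 8.26 and 8.42 in IBM1 knockouts against 8.69 and 8.67 in WT, a difference of -0.34 (limma's adjusted p 0.103). In double knockouts PRPL19A measured 8.32 and 8.29. Of 9 sigma factors and nuclear-encoded polymerases only RPOTmp was measured, and its signal, 2.31 to 2.61, was at background. None of the 12 polymerase-associated proteins and none of the 4 nuclear acetyl-CoA carboxylase subunits had a named probe set.

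Of 9 nuclear Clp protease subunits, 2 were measured and none was called. CLPR3 measured 7.90 and 7.81 in IBM1 knockouts, against 8.22 and 8.13 in WT, a difference of -0.32 (limma's adjusted p 0.091). In double knockouts CLPR3 measured 8.11 and 8.14. Of 3 partners of CcsA in cytochrome c assembly, 2 were measured. CCS1 measured 5.54 and 5.66 in IBM1 knockouts, against 5.97 and 6.26 in WT, a difference of -0.52 (adjusted p 0.126). CCDA, which carries reducing power into the thylakoid, measured 6.81 and 6.98 in IBM1 knockouts, against 7.21 and 7.30 in WT, a difference of -0.36 (adjusted p 0.185). The double knockout measured 6.23 and 6.19 for CCS1 and 7.39 and 7.17 for CCDA. Of 11 partners of Ycf proteins, PYG7, which takes part in photosystem I assembly, measured 6.08 and 6.02 in IBM1 knockouts and 6.16 and 6.48 in WT, a difference of -0.27 (adjusted p 0.623). The only other one measured, PDNAD-MDH, a chloroplast malate dehydrogenase, measured 6.803 and 7.18 in IBM1 knockouts and 6.61 and 6.73 in WT, a difference of 0.32 (adjusted p 0.375). The double knockout measured 6.05 and 6.50 for PYG7 and 6.79 and 6.87 for PDNAD-MDH.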

How the data were processed

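The authors' deposited table holds 1 log2 value per probe set and array. The submitters' processing notes name GCRMA, which corrects background, normalises quantiles across arrays and summarises probes, without version or settings. Array medians ran from 3.42 to 3.52. Precision is limited by the number of arrays. Of 22810 probe sets, 64 controls were left out. The platform annotation names 1 gene for 13513 probe sets, several for 503 and none for 8730; 13436 of the first were found in the gene table of assembly TAIR10.1. Groups came from the genotype labels. With limma 3.58.1 (R 4.3.3), all 8 arrays entered a single model holding a mean for each genotype, followed by contrasts and eBayes, with 4 residual degrees of freedom and a prior worth 1.2. The interaction sets the effect of losing JMJ24 in plants without IBM1 against its effect in plants with IBM1. Class medians are descriptions with no test. The fit was also run on simulated data with noise independent between probe sets. That run does not cover shifts shared by many genes of an array.

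The members and lists were chosen with earlier results of these data known. All members are named, with the 2 largest differences in each direction per contrast; of other genes, at most the 2 with the lowest p per list and contrast are named. Alternatives were centring on array medians, a further quantile normalization, a filter on dim probe sets, limma-trend, the 2 compared groups alone, a replicate block, means for medians, leaving out rpoA or rpoB, and leaving out each array. Taking every probe set of each member, also counted as an alternative, repeated the main fit. Probe sets naming both copies of a gene in the inverted repeat lie outside the rule.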

Additional observations from a re-analysis of the deposited data

Results flagged for a closer look

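Chloroplast genes in the inverted repeat are present in 2 copies, and 7 probe sets naming both copies of 6 of them (rps12, rps7, rpl2, rpl23, ycf1 and ycf2) were outside the comparisons above. In 2 of these probe sets, both arrays of a knockout stood above every other array. The share of all probe sets in which this happens was not computed, so the count is not read as a result. The looser condition, both arrays above both WT arrays, held for 19.2% of all probe sets in the IBM1 knockout. In the double knockout it held for 13.1%. The ycf2 probe set, for a protein of the chloroplast envelope, measured 4.38 and 3.40 in the IBM1 knockout, while the other 6 arrays, WT included, lay between 2.69 and 2.80. Those 6 arrays were near background, the lower quartile over all probe sets being 2.49 to 2.53. The value of 3.40, from IBM1 knockout replicate 2, was itself below the array medians of 3.42 to 3.52. The IBM1 knockout minus WT difference was 1.16 (limma's adjusted p 0.185, with higher values on 2 of 2 arrays), and the double knockout, which lacks IBM1 too, was at 2.72 and 2.80. The control for 5S ribosomal RNA was likewise higher on the IBM1 knockout arrays, at 3.80 and 3.57, than on the other 6, at 2.65 to 2.73, and its part in the ycf2 value was not tested. The rpl2 probe set, for a large-subunit protein, measured 12.17 and 12.23 in the double knockout, while the other 6 arrays lay between 12.00 and 12.10. Its double knockout minus WT difference was 0.11 (adjusted p 0.891, 2 of 2 arrays).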

How the results depend on the processing

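No member was called under any of 89 combinations of contrast and alternative. Of these, 1 for each of the 6 contrasts took every probe set of each member. It only repeated the main fit, since no member had a second probe set. With all arrays of the compared genotypes kept, limma's lowest adjusted p was 0.14, for rpl16 in the IBM1 knockout minus WT with a replicate block (-0.43). Without double knockout replicate 2, the double minus the IBM1 knockout difference of rps15 was -1.23. Whether the replicate numbers pair the arrays was not settled. Between genotypes, the replicate differences correlated at -0.31 to 0.21 over all probe sets. Over the members the correlations were 0.19 to 0.43 among the knockouts. With WT they were 0.42 (JMJ24 knockout), -0.35 (IBM1 knockout) and -0.22 (double knockout). With a replicate block, which left 3 residual degrees of freedom, 0 probe sets were called in any contrast. The 2 compared groups alone likewise gave 0. At limma's unadjusted p under 0.05, the block gave 1 to 3 members per contrast, where the main fit gave 0. The 2 compared groups alone gave up to 4, in the IBM1 knockout minus WT. Centring, quantile normalization, the filter and limma-trend gave at most 1. The share of all probe sets passing in these fits was not counted, so the member counts are not read as a result. Over all probe sets, calls for the JMJ24 knockout minus WT numbered 2, and 1 with quantile normalization. For the double knockout minus WT they numbered 2, and 5 with limma-trend. For the double minus the IBM1 knockout they numbered 55, 25 with quantile normalization and 6 with the filter on dim probe sets. For the double minus the JMJ24 knockout they numbered 0, and 1 with limma-trend. For the interaction they numbered 3, 0 with quantile normalization or the filter, and 10 with limma-trend. Leaving out each array in turn gave 0 to 1 calls for the JMJ24 knockout and 0 to 1 for the double knockout against WT, 0 to 165 for the IBM1 knockout, 0 to 161 for the double minus the IBM1 knockout and 0 to 68 for the interaction. The highest counts came without IBM1 knockout replicate 1. With 1 array left out, the ribosomal minus polymerase median ran from -0.16 to -0.074 for the JMJ24, -0.32 to -0.057 for the IBM1 and -0.25 to -0.069 for the double knockout against WT. It ran from -0.025 to 0.091 for the double minus the IBM1 knockout, -0.23 to -0.0052 for the double minus the JMJ24 knockout, and 0.040 to 0.27 for the interaction. With means in place of medians it was -0.13 for the double knockout minus WT; for the interaction, 0.23, it was 0.31 without rpoA and 0.16 without rpoB. Of 330 single values 18 changed sign, each with 1 array left out. The 330 cover only the 2 largest differences in each direction per contrast. Many of them could not change sign. Limma-trend, the block, the filter and the 2 compared groups alone leave an estimate as it was. So does leaving out an array outside a pairwise contrast. The 18 are thus not read as a share of the 330. The ranges against WT were -0.15 to 0.22 for ycf4 (JMJ24 knockout) and -0.0064 to 0.77 for rpoC2 (IBM1 knockout). For the double knockout they were -0.84 to 0.12 for rps15, -0.75 to 0.046 for rpl36, -0.29 to 0.79 for rpl20 and -0.13 to 0.45 for rpoC1. In the double minus the IBM1 knockout they were -1.20 to 0.41 for rpoC2 and -0.15 to 0.90 for rpl32. In the double minus the JMJ24 knockout they were -0.86 to 0.20 for ycf4, -0.89 to 0.33 for ycf3 and -0.26 to 0.82 for rpl20. In the interaction they were -0.78 to 0.18 for rps15, -0.0080 to 1.002 for rps18 and -0.031 to 1.01 for rpl32. The causes were not tested.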

Other observations

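The remaining inverted-repeat genes gave further values for chloroplast ribosomal proteins. Both probe sets of rps12, whose transcript is joined from separately transcribed pieces, were lower in the IBM1 knockout than in WT on both arrays. The first measured 6.48 and 6.64 in the IBM1 knockout against 7.09 and 7.28 in WT (-0.62, limma's adjusted p 0.507), and the second 10.22 and 10.46 against 10.75 and 10.85 in WT (-0.46, adjusted p 0.579). For rpl23 the IBM1 knockout measured 10.001 and 10.28, against 10.55 and 10.55 in WT (-0.41, adjusted p 0.581), and for rps7 it measured 11.76 and 11.89, against 12.03 and 11.99 in WT (-0.19, adjusted p 0.840). For ycf1, a large protein of the chloroplast envelope, the IBM1 knockout measured 9.52 and 9.58, against 9.47 and 9.42 in WT (0.11, adjusted p 0.9999). The double knockout measured 6.68 and 7.38 for the first rps12 probe set and 10.34 and 10.95 for the second. It measured 10.11 and 10.58 for rpl23, 11.67 and 12.20 for rps7, and 8.94 and 9.60 for ycf1. None of these 7 probe sets was called in any contrast.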
